A study of Homo sapiens with 4 samples.

Results

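Histone lysine methyltransferases and demethylases add and remove methyl groups on the tails of histones. The 42 genes described here belong to families of these enzymes, outside the KDM6 demethylases and polycomb repressive complex 2. Members were chosen by gene symbol from the KMT2, SETD, SUV39, EHMT, NSD, PRDM, SMYD and KDM families, and each of the 42 symbols matched an entry among the 60662 genes of the deposited table. NB4, a human acute promyelocytic leukemia (M3/APL) cell line that carries the PML-RARα fusion, was transduced either with an empty control vector (2 libraries, Vector 1 and Vector 2) or with a JMJD3-expressing vector (2 libraries, JMJD3 1 and JMJD3 2). JMJD3 is the product of KDM6B and removes methyl groups from H3K27. Both groups carried a lentiviral vector with a GFP marker, and the study's methods describe sorting of GFP-positive cells. Polyadenylated RNA selected from total RNA was sequenced, and the labels do not state that replicate libraries started from separate cultures, so p-values measure the spread between these libraries, which may be technical only.

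The writers and erasers of histone lysine methylation work against each other at the same sites. Methylation of H3K4 marks active promoters and enhancers, that of H3K36 and H3K79 marks transcribed gene bodies, and that of H3K9 marks heterochromatin. The LSD demethylases use flavin as a cofactor and the JmjC demethylases, JMJD3 among them, use iron and 2-oxoglutarate. In leukemia this machinery is best known through KMT2A fusions, DOT1L and KDM1A.

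The deposited counts summed to 39078443 in Vector 1, 40768225 in Vector 2, 35176388 in JMJD3 1 and 34704909 in JMJD3 2. These columns were not fragment counts as they stood. Within each library most low values were whole multiples of a single value, which was 1.14 in Vector 1, 1.05 in Vector 2, 0.993 in JMJD3 1 and 0.829 in JMJD3 2, and 94.4% to 94.6% of the values under 100 fragments were whole, within 0.01, after division by it. Division gave 34190328, 38947079, 35431650 and 41876232 fragments in the same order, so that the library with the lowest deposited total was the deepest. Levels are given as CPM, the deposited count scaled to the TMM-adjusted size of its library, or as the deposited FPKM, which also divides by gene length. A count of 0 allowed up to 3 fragments, between 0.0671 and 0.0925 CPM depending on the library, and such limits cover counting error only.

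KDM6B itself stood at 15.8 CPM in Vector 1, 13.7 CPM in Vector 2, 37.9 CPM in JMJD3 1 and 44.1 CPM in JMJD3 2. Both JMJD3 libraries were above both vector libraries, as the labels say. On the log2 scale the difference was 1.48 with a standard error (SE) of 0.13, and edgeR's quasi-likelihood test gave an adjusted p = 0.00114 after Benjamini-Hochberg adjustment over 15246 genes. It was called without each library in turn, between 1.36 and 1.58. A count per gene does not separate KDM6B transcripts made from the vector and from the endogenous locus.

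The libraries differed within groups in a way that followed gene length. Within a library the quotient of count and FPKM of a gene is in proportion to the length used for it, and its median was 168 over the 41 members tested against 68.5 over the 13925 tested genes with a value. Among the 1393 longest of those genes the median log2 ratio of Vector 1 to Vector 2 was 0.32, and among the 1393 shortest it was -0.20. Members had a median ratio of 0.24, so most were higher in Vector 1 than in Vector 2, with ASH1L at 0.80, KMT2C at 0.75 and PRDM10 at 0.67 farthest apart. The JMJD3 libraries differed the other way and by less, with medians of -0.10 among the longest and 0.11 among the shortest. Across the members the Spearman correlation of the quotient with the log2 ratio was 0.47 for the vector libraries and -0.69 for the JMJD3 libraries (n = 41 genes, which share their libraries and are not independent), beside 0.46 and -0.39 over the 13925 tested genes. The labels give lane 20 for Vector 1 and lane 17 for the other 3 libraries. The part of the lane in this difference was not tested, and with 1 library on lane 20 it cannot be told apart from that library.

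**Figure D1:**
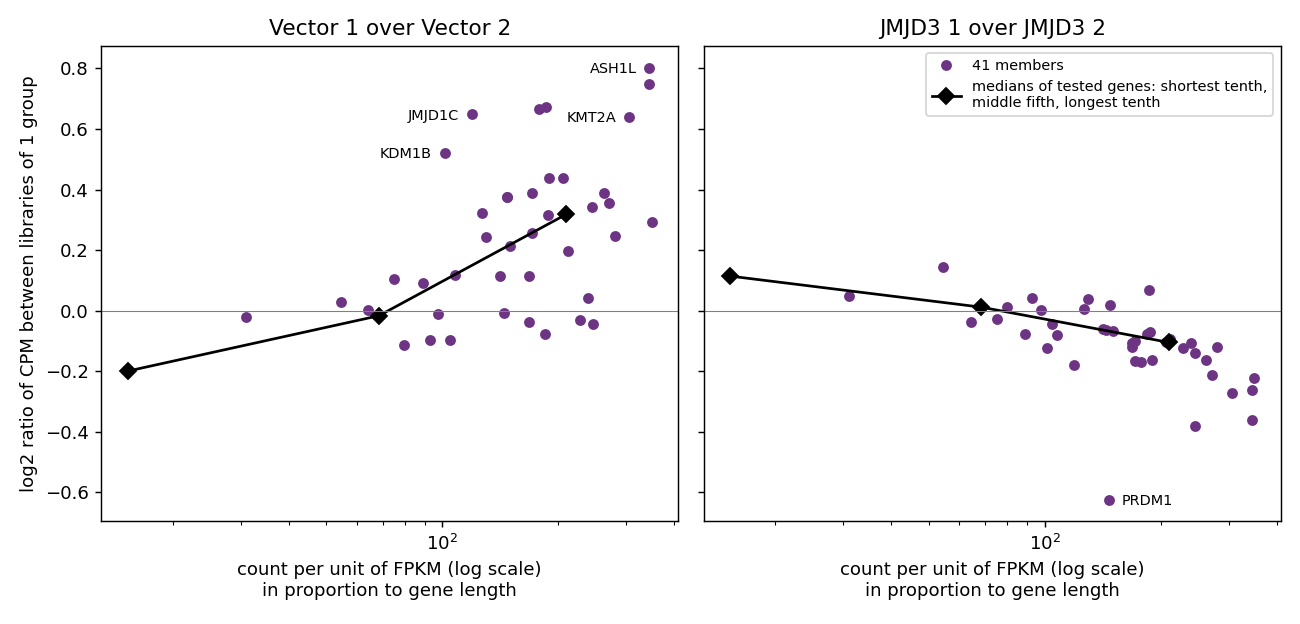
Log2 ratio of CPM between the 2 libraries of each group for the 41 tested members, against the count per unit of FPKM (log scale), which is in proportion to gene length, with diamonds for the medians of all tested genes. Members with a high quotient lay mostly above 0 between the vector libraries, up to 0.80 for ASH1L but at -0.04 for SETD1A and -0.03 for DOT1L, and mostly below 0 between the JMJD3 libraries.

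PRDM8 rose and PRDM1 fell most with JMJD3 overexpression, and most other called members changed by less than 1.5-fold. With edgeR's adjusted p held to 0.05, 7 of the 41 tested members were called higher in JMJD3 cells (17.1%) and 9 lower (22.0%), against 21.6% and 19.1% of all 15246 genes tested. With a change of at least 2-fold as well, 1 member was higher and 1 was lower, where 7.55% and 2.82% of all tested genes were. The shares of 17.1% and 22.0% were near those of all genes and are no result about the members as a group, and neither are the single members past 2-fold. The median log2 fold change was 0.07 over the members and 0.04 over all tested genes, and the median size of the change was 0.29 and 0.36. Vector and JMJD3 libraries did not overlap in CPM in 25 of the 41 members (61.0%) and in 74.4% of all tested genes, with all 16 called members among the 25. The remaining member, PRDM16, was too low to be tested.

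These counts depended on single libraries and on the scale. Without Vector 1, 17 members were higher and 11 lower, the 16 called members among them, and 26.8% and 26.6% of all tested genes were then called. Without JMJD3 1 the counts were 4 higher and 3 lower, beside 12.8% and 8.64% of all genes, and without JMJD3 2 they were 2 and 4, beside 12% and 7.03%. With a length trend taken out of each library, an alternative chosen after seeing the data, 8 members were higher and 16 lower, of which 6 and 9 were shared with the calls above, and 23.3% and 25.7% of all genes were then called. With limma on log2(FPKM + 1) 5 members were higher and 11 lower, beside 13.4% and 14.8% of all genes. Once each library was also scaled to a common mean (chosen after seeing the data), which put the median of all tested genes at -0.06, 4 members and 10.3% of all genes were higher and 13 members and 21% of all genes lower. Dividing each library by its value of 1 fragment, also chosen after seeing the data, left the same 7 and 9 members called.

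**Figure D2:**
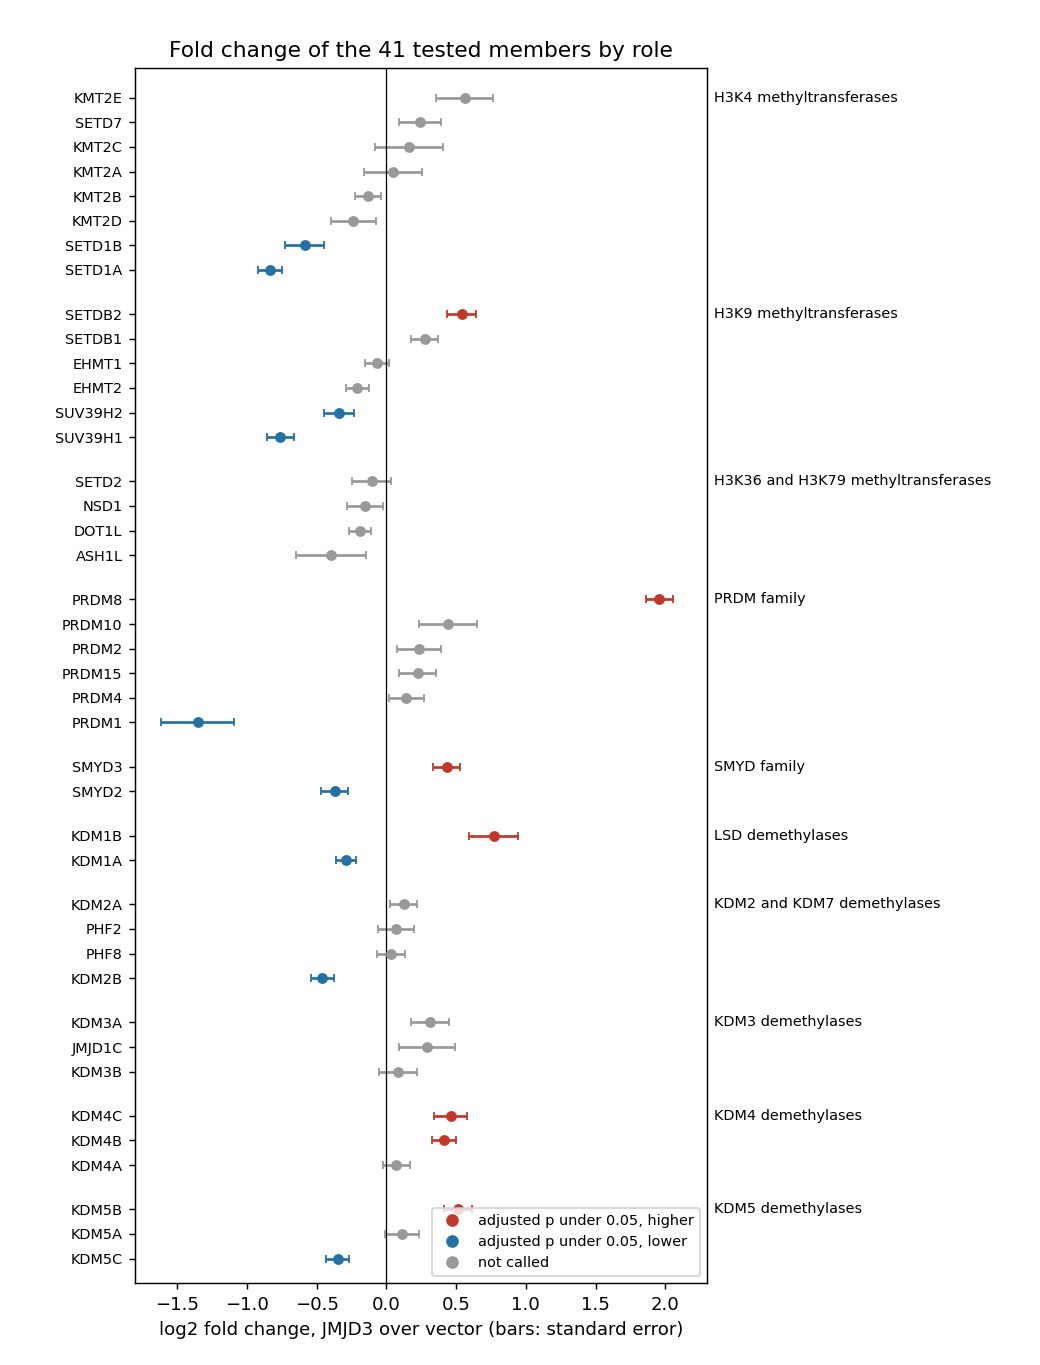
Log2 fold change (JMJD3 over vector, bars: standard error) of the 41 tested members, ordered by role, with colour for the edgeR call. PRDM8 at 1.96 and PRDM1 at -1.35 lie farthest from 0, and 5 of the 10 role groups hold both a higher and a lower member. Members were called at 17.1% higher and 22.0% lower, near the 21.6% and 19.1% of all tested genes. The 5 mixed groups are thus no result about the roles.

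Among the 8 H3K4 methyltransferases edgeR called 2 lower and 0 higher, with KMT2E the 1 positive member at an unadjusted p under 0.05 and called by DESeq2. SETD1A, a catalytic subunit of the SET1/COMPASS complex, stood at 161 CPM in Vector 1, 166 CPM in Vector 2, 87.1 CPM in JMJD3 1 and 95.9 CPM in JMJD3 2. Both JMJD3 libraries were well below both vector libraries, a log2 fold change of -0.84 (SE 0.09, edgeR adjusted p = 0.00164). Its paralogue SETD1B, which serves the same kind of complex, was at 101 and 79.05 CPM in the vector libraries and at 55.6 and 64.4 CPM in the JMJD3 libraries. SETD1B showed a wider spread between replicates but no overlap, with a log2 fold change of -0.59 (SE 0.14, edgeR adjusted p = 0.0177). That call was lost without JMJD3 1 (log2 fold change -0.48, edgeR adjusted p = 0.0851), without a filter on low counts (-0.59) and with limma on log2(FPKM + 1) (-0.50), while the call of SETD1A held without each library in turn.

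In edgeR's fit of all 4 libraries with TMM scaling, 0 of the 5 KMT2 genes were called, with KMT2E the 1 at an unadjusted p under 0.05. DESeq2's test called KMT2E higher (0.53, adjusted p = 0.00845), and limma on log2(FPKM + 1) called KMT2B (-0.47) and KMT2D (-0.75) lower, as did edgeR with the length trend taken out (-0.35 and -0.45), which also called KMT2E higher (0.38). KMT2A, the target of rearrangements in acute leukemia, had a log2 fold change of 0.05, and KMT2C, a methyltransferase of enhancers, 0.16. Both turned negative with limma on log2(FPKM + 1) (-0.18 and -0.03), without Vector 2 (-0.24 and -0.17) and without JMJD3 2 (-0.09 and -0.03), and without Vector 1 KMT2A had 0.36, not called, and KMT2C 0.54, called higher. KMT2B and KMT2D, which methylate H3K4 at promoters and enhancers, had log2 fold changes of -0.13 and -0.24. With a library left out KMT2B lay between -0.18 and -0.08 and KMT2D between -0.44 and -0.06, none of these called. KMT2E, whose SET domain is thought to lack methyltransferase activity, stood at 122 and 76.7 CPM in the vector libraries and at 138 and 155 CPM in the JMJD3 libraries, a log2 fold change of 0.56 that missed the threshold (edgeR adjusted p = 0.0638). Its vector libraries were far apart, and it was called higher without Vector 1, at 0.89, without JMJD3 1, at 0.64, with upper quartile scaling, at 0.60, and with the replicate number as a block, at 0.60. It was not called without Vector 2, where it had 0.26 (edgeR adjusted p = 0.0631), without JMJD3 2, at 0.48, or without a filter on low counts, at 0.56 (edgeR adjusted p = 0.215). SETD7, an H3K4 monomethyltransferase with many other substrates, had a log2 fold change of 0.24, not called, 0.43 without Vector 1, where it was called, 0.03 without Vector 2, not called, and -0.09 with limma on scaled FPKM.

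Among the 6 H3K9 methyltransferases, SUV39H1 and SUV39H2 were lower and SETDB2 was higher. SUV39H1, which trimethylates H3K9 in pericentric heterochromatin, stood at 54.9 CPM in Vector 1, 59.4 CPM in Vector 2, 33.9 CPM in JMJD3 1 and 33.6 CPM in JMJD3 2. The replicates lay close together and the groups were well apart, a log2 fold change of -0.76 (SE 0.10, edgeR adjusted p = 0.00259). Its paralogue SUV39H2 changed less, with a log2 fold change of -0.34 (edgeR adjusted p = 0.0406), and was not called with upper quartile scaling (-0.30), with limma on log2(FPKM + 1) (-0.29), without a filter on low counts (-0.34), with the replicate number as a block (-0.34), without JMJD3 1 (-0.41) or without JMJD3 2 (-0.27). SETDB2 had a log2 fold change of 0.54 (edgeR adjusted p = 0.00823), and was not called without JMJD3 1 (0.57) or without JMJD3 2 (0.51). SETDB1, which silences retroelements with TRIM28, had 0.28 and was not called (edgeR adjusted p = 0.0565), although it was called without Vector 1 (0.28), without Vector 2 (0.22) and with upper quartile scaling (0.31). EHMT1 and EHMT2, which form the G9a/GLP heterodimer for H3K9 dimethylation, had log2 fold changes of -0.06 and -0.21, neither called, and EHMT2 was called lower without Vector 1 (-0.30) and with limma on log2(FPKM + 1) (-0.40), but not without Vector 2 (-0.16).

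The 4 methyltransferases of H3K36 and H3K79 had negative log2 fold changes, between -0.40 and -0.11, although NSD1 turned positive with limma on log2(FPKM + 1) (0.11). Of these, 0 were called by edgeR in the fit of all libraries, and 0 by DESeq2 or by limma on unscaled FPKM. At an unadjusted p under 0.05 in that edgeR fit there was 1, DOT1L, the H3K79 methyltransferase (log2 fold change -0.19, edgeR adjusted p = 0.0967). DOT1L was called without Vector 1 (-0.25) and with limma on scaled FPKM (-0.34), and had -0.13, not called, without JMJD3 1. SETD2, which trimethylates H3K36, had -0.11, and NSD1, which dimethylates it, had -0.15, and -0.04 without Vector 1 and -0.29 without Vector 2, neither called. ASH1L, a further H3K36 methyltransferase, had -0.40 with an SE of 0.25. The sign of SETD2 and ASH1L turned without Vector 1, to 0.06 and 0.01, and both were called lower without Vector 2, at -0.29 and -0.75. With the length trend taken out, all 4 were called lower.

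The PRDM family gave both the largest rise and the largest fall among the members. PRDM8, a PR domain repressor studied mostly in neurons and retina, stood at 19.96 CPM in Vector 1, 21.3 CPM in Vector 2, 81.3 CPM in JMJD3 1 and 78.9 CPM in JMJD3 2. Replicates nearly coincided and the JMJD3 libraries were 3.88-fold higher, a log2 fold change of 1.96 (SE 0.10, edgeR adjusted p = 0.000329). PRDM1 encodes BLIMP1, a repressor that drives plasma cell differentiation and also acts in myeloid cells, and stood at 3.67 CPM in Vector 1, 2.83 CPM in Vector 2, 0.999 CPM in JMJD3 1 and 1.54 CPM in JMJD3 2. It was low in all libraries and lower in both JMJD3 libraries, a log2 fold change of -1.35 (SE 0.26, edgeR adjusted p = 0.00838). Both calls held without each library in turn. On log2(FPKM + 1), which compresses low levels, PRDM1 had -0.44 and was still called by limma.

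The other PRDM genes among the 42 members were not called by edgeR in the fit of all 4 libraries. PRDM2, also known as RIZ, had a log2 fold change of 0.23, PRDM4 had 0.14, PRDM15 had 0.23 and PRDM10 had 0.44. Without Vector 1 the first had 0.43, PRDM4 had 0.27 and PRDM10 had 0.78, each of them called higher, and PRDM15 had 0.32, not called. Without Vector 2 PRDM2 had 0.03, PRDM4 had -0.01, PRDM15 had 0.10 and PRDM10 had 0.14, none of them called. With the replicate number as a block PRDM10 was called as well, at 0.48. PRDM16, a regulator of hematopoietic stem cells and brown fat, had 0 counts in Vector 1, Vector 2 and JMJD3 2 and 0.993 in JMJD3 1, which is a single fragment, and no fold change is given for it.

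The promoters of PRDM8 and PRDM1 are shown because these are the members with the largest rise and fall. RefSeq start sites on GRCh38.p14 were found for 39 of the 42 members, with 63 upstream windows of 250 bases. Each of the pair had 2 start sites, and the window of the upstream one is shown, both on the plus strand, chr4:80185020-80185269 for PRDM8 and chr6:106086086-106086335 for PRDM1. Capitals mark a match on either strand to TTNNGNAA, a loose form of the C/EBP motif, searched because C/EBP factors direct granulocytic differentiation.
PRDM8: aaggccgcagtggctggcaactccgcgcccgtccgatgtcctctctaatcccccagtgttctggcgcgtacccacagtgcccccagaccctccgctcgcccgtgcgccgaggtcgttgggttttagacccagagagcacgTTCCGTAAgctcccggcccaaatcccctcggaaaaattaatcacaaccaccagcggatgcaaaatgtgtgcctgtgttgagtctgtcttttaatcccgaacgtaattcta
PRDM1: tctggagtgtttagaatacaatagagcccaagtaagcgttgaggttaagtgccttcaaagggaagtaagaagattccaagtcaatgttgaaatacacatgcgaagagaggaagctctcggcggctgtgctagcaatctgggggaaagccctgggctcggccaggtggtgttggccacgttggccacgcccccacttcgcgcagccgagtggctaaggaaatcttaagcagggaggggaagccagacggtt
The PRDM8 window held 20 CpG dinucleotides and 1 place that matched the motif on both strands, and the PRDM1 window held 11 CpG dinucleotides and 0 matches. At the other start site the opposite held, with 0 matches for PRDM8 and 1 for PRDM1. The median over the windows of the members was 22 CpG dinucleotides, against 11 over all 35116 windows. A match was present in 23.8% of the member windows and in 33.2% of all windows of that length. A match describes the letters only, and binding was not analysed here.

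The 2 SMYD members were called in opposite directions. SMYD3, an oncogenic methyltransferase with cytoplasmic substrates as well, was higher with a log2 fold change of 0.43 (edgeR adjusted p = 0.0147). SMYD2, which also methylates p53, was lower with -0.37 (edgeR adjusted p = 0.0234). Neither was called without JMJD3 1 (0.41 and -0.35) or without JMJD3 2 (0.46 and -0.38), and SMYD2 was not called without a filter on low counts or with the replicate number as a block (both -0.37).

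The LSD demethylases, which remove methyl groups from mono- and dimethylated H3K4, also split. KDM1B stood at 22.0 CPM in Vector 1, 15.4 CPM in Vector 2, 30.5 CPM in JMJD3 1 and 33.2 CPM in JMJD3 2. Its vector libraries were the more spread, and both were below the JMJD3 libraries, a log2 fold change of 0.77 (SE 0.17, edgeR adjusted p = 0.0147) that held without each library in turn but was lost without a filter on low counts (0.77, edgeR adjusted p = 0.0734). KDM1A, or LSD1, a drug target in acute myeloid leukemia, was at 230 and 232 CPM in the vector libraries and at 189 and 189 CPM in the JMJD3 libraries. Its fall was small and its replicates nearly equal, with a log2 fold change of -0.29 (edgeR adjusted p = 0.0202). KDM1A was not called with the replicate number as a block (edgeR adjusted p = 0.0930), without JMJD3 1 (-0.29) or without JMJD3 2 (-0.28).

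**Figure D3:**
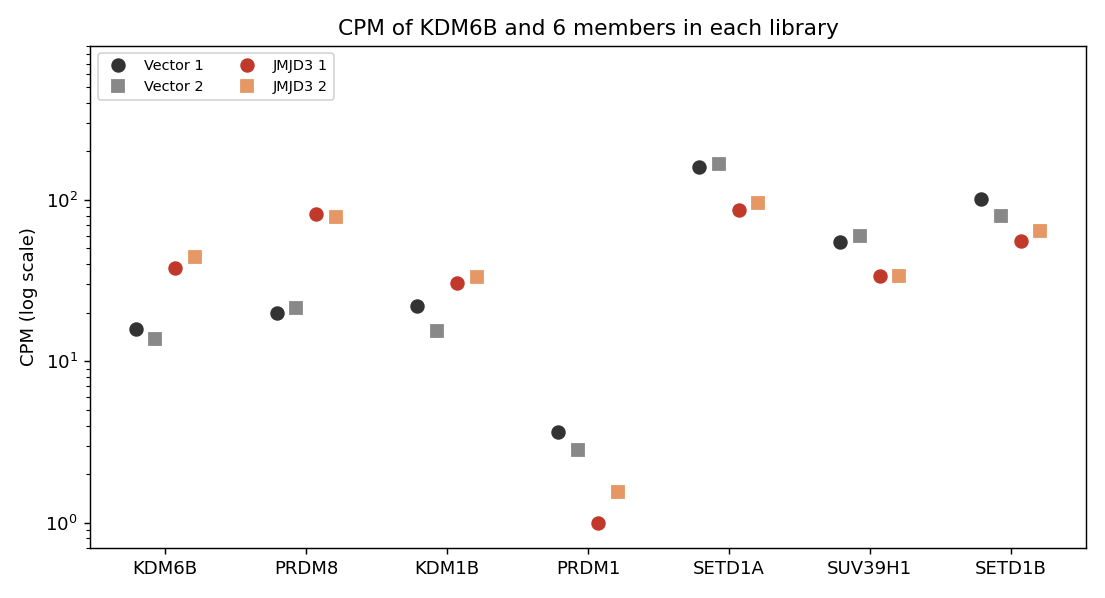
CPM (log scale) in each of the 4 libraries for KDM6B and the 6 members that edgeR called with a change of at least 1.5-fold. PRDM8 runs from 19.96 to 81.3 CPM and PRDM1 from 0.999 to 3.67 CPM, and the vector and JMJD3 points of each gene do not overlap.

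Of the 4 KDM2 and KDM7 demethylases among the 42 members (KDM2A, KDM2B, PHF2 and PHF8), edgeR called KDM2B in the fit of all 4 libraries. This H3K36 demethylase, which also brings a variant polycomb complex to CpG islands, had a log2 fold change of -0.46 (edgeR adjusted p = 0.00738), and was not called without JMJD3 1 (-0.42) or without JMJD3 2 (-0.50). Its paralogue KDM2A had 0.12, and PHF2 and PHF8, demethylases of H3K9 with a PHD finger, had 0.07 and 0.04. With limma on log2(FPKM + 1) KDM2A and PHF2 had -0.05, without Vector 2 PHF2 and PHF8 had -0.09 and -0.03, and without JMJD3 2 PHF8 had -0.02. Of the 3 KDM3 demethylases of H3K9, 0 were called by edgeR in the fit of all 4 libraries with TMM scaling, or by DESeq2. With the replicate numbers paired crosswise as a block, edgeR called KDM3A (0.33) and JMJD1C (0.32) higher. Upper quartile scaling gave KDM3A an unadjusted edgeR p of 0.0283. In the first of these fits 0 of the 3 had an unadjusted p under 0.05, with KDM3A at 0.32, JMJD1C at 0.29 and KDM3B at 0.08. Without Vector 1 they were called higher, at 0.47, 0.61 and 0.25, while without Vector 2 KDM3A had 0.14, KDM3B had -0.10 and JMJD1C had a value just below 0 (-0.0030), none of them called, and with limma on log2(FPKM + 1) KDM3B had -0.14 and JMJD1C was called lower (-0.51).

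The KDM4 demethylases, which act on trimethylated H3K9 and H3K36, had positive values, except that KDM4A had -0.11 with the length trend taken out. KDM4B and KDM4C were called higher with log2 fold changes of 0.42 and 0.46 (edgeR adjusted p = 0.0104 and 0.0213). KDM4A had 0.07 and was not called. KDM4B and KDM4C lost their calls with limma on log2(FPKM + 1) (0.31 and 0.34), without JMJD3 1 (0.45 and 0.44) and without JMJD3 2 (0.38 and 0.48), KDM4B also with the length trend taken out (0.20) and KDM4C without a filter on low counts (0.46). The KDM5 demethylases of trimethylated H3K4 split again. KDM5B was higher with a log2 fold change of 0.51 (edgeR adjusted p = 0.00963), KDM5C was lower with -0.35 (edgeR adjusted p = 0.0154), and KDM5A had 0.11, not called, and -0.01 without Vector 2. KDM5B was not called without JMJD3 2 (0.47) or with limma on scaled FPKM (0.38), and KDM5C was called neither without it (-0.40) nor without JMJD3 1 (-0.29).

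Per length, KDM1A was the most abundant member in both groups, with a mean FPKM of 92.5 in vector cells and 69.2 in JMJD3 cells. In vector cells KDM2B (65.5 FPKM), EHMT2 (48.7 FPKM), KDM5C (43.1 FPKM) and DOT1L (40.2 FPKM) followed it. KDM1A was at 85.5 and 99.5 FPKM in the 2 vector libraries and KDM2B at 68.04 and 62.9 FPKM, so these neighbours did not overlap, whereas KDM5C (44.2 and 42.0 FPKM) and DOT1L (38.7 and 41.8 FPKM) lay within a few units of each other. PRDM8 moved from rank 29 with 8.21 FPKM in vector cells to rank 8 with 32.7 FPKM in JMJD3 cells. PRDM1 was the lowest member tested, at 0.808 and 0.331 FPKM.

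**Figure D4:**
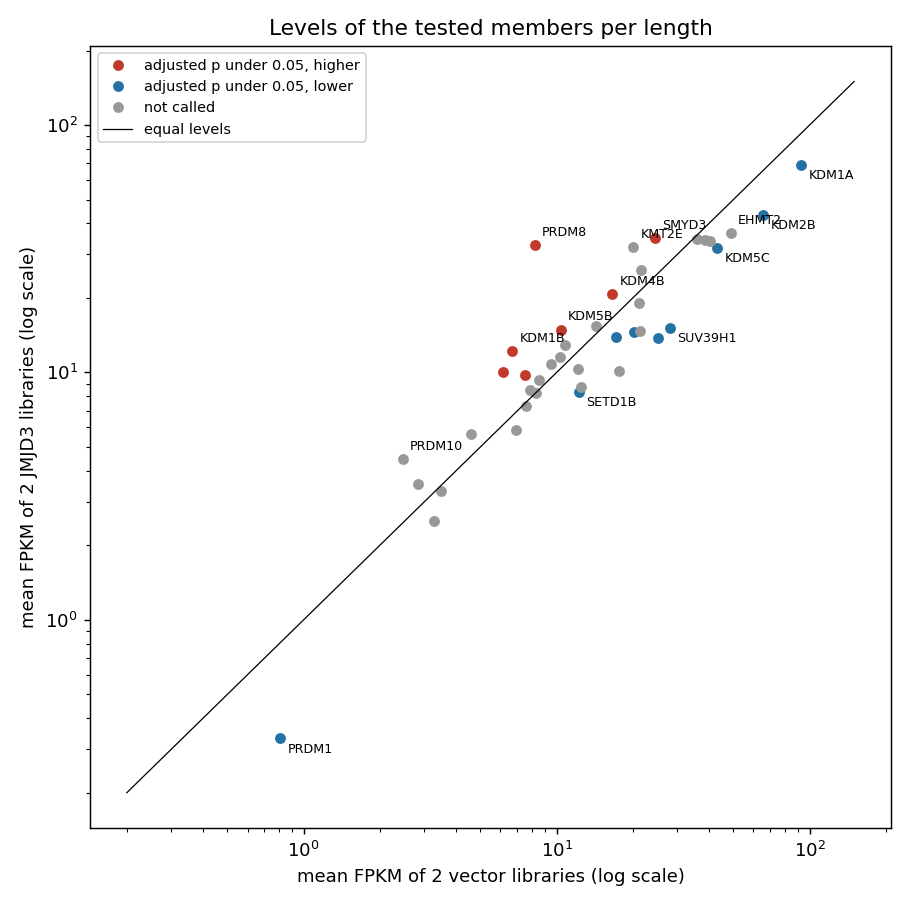
Mean FPKM of the 2 JMJD3 libraries against that of the 2 vector libraries (both log scales) for the 41 tested members, with the line of equal levels and some members named. KDM1A is highest in both groups, and PRDM8 lies farthest above the line, at 8.21 and 32.7 FPKM.

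The FPKM summed over a role group, for which no test was run, differed most in the PRDM family, with 39.4 and 33.4 FPKM in the vector libraries and 64.4 and 65.6 FPKM in the JMJD3 libraries. The share of PRDM8 in that sum went from 22.6% to 50.3%. The KDM4 sum was 33.1 and 34.1 FPKM in vector libraries and 40.4 and 42.3 FPKM in JMJD3 libraries. The sum of the H3K9 methyltransferases was lower in JMJD3 libraries, at 135 and 137 FPKM against 158 and 163 FPKM, as was that of the LSD demethylases, at 81.4 and 81.3 FPKM against 93.5 and 105 FPKM. Of the 10 role groups as drawn here, the KDM2 and KDM7 demethylases had the largest fall as a log2 ratio of FPKM (-0.30, and -0.13 for summed CPM). Their sums were 124 and 114 FPKM in vector libraries and 93.6 and 99.99 FPKM in JMJD3 libraries. The H3K4 methyltransferases had -0.23 with KMT2E (log2 ratio of FPKM 0.68, not called) counted in. Their sum without KMT2E was not computed, and the order of the falls may depend on it. The FPKM sums of the groups did not overlap in any of the 10 role groups. Such separation was common with 2 libraries a group, at 74.4% of all tested genes in CPM. The share for FPKM was not computed, so the 10 are no result about the enzymes. For the H3K4 methyltransferases the nearest libraries were at 97.2 FPKM (Vector 2) and 96.96 FPKM (JMJD3 2). KMT2E, thought to lack methyltransferase activity, made up 18.9% of that sum in vector cells and 35.5% in JMJD3 cells. As summed CPM the groups did overlap for the H3K4 methyltransferases, the KDM3 demethylases and the KDM5 demethylases. The SMYD sum held opposite changes, with 43.7 and 45.5 FPKM in vector libraries and 51.1 and 48.1 FPKM in JMJD3 libraries, a log2 ratio of 0.15 that was -0.01 for summed CPM. For the KDM3 demethylases the ratio was -0.19 in FPKM and 0.20 in CPM.

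Count and FPKM gave different differences for some members, since the quotient of count and FPKM was not the same in every library. Over 13925 tested genes the log2 ratio of this quotient, JMJD3 to vector, had a median of 0.00325, with 5% of genes below -0.30 and 5% above 0.29. JMJD1C at 0.84, KMT2D at 0.54 and KMT2B at 0.36 lay above that range and PRDM10 at -0.40 below it. JMJD1C thus had a log2 fold change of 0.29 in counts and a log2 ratio of -0.54 in FPKM, with 60.2, 38.4, 56.5 and 64.0 CPM but 22.4, 20.2, 14.2 and 15.1 FPKM in Vector 1, Vector 2, JMJD3 1 and JMJD3 2. For KMT2D the values were -0.24 and -0.80, and for KMT2B -0.13 and -0.51. With limma on log2(FPKM + 1) KMT2B, KMT2D, EHMT2 and JMJD1C were called lower. Whether their transcript isoforms differ between the groups was not tested.

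**Figure D5:**
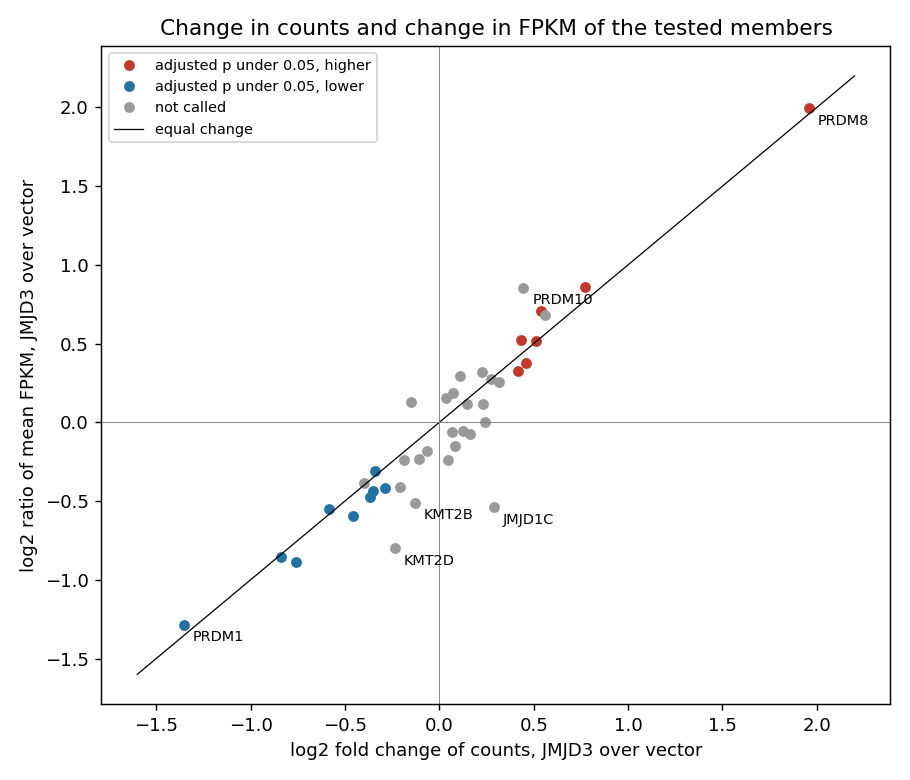
Log2 ratio of mean FPKM against the log2 fold change of counts (both JMJD3 over vector) for the 41 tested members, with the line of equal change. Most members lie near the line, PRDM8 at 1.96 and 1.99 among them, while JMJD1C (0.29 and -0.54), KMT2D and KMT2B lie below it and PRDM10 above it.

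Genes that work with these enzymes were counted in 6 further lists. In all, 99 genes were listed and 89 tested, of which edgeR called 13 higher (14.6%) and 20 lower (22.5%), beside 21.6% and 19.1% of all tested genes. Without Vector 1 the counts were 28 higher and 27 lower, when 26.8% and 26.6% of all tested genes were called. Without JMJD3 1 they were 6 and 9, beside 12.8% and 8.64% of all genes, and without JMJD3 2 they were 7 and 7, beside 12% and 7.03%. Each gene named from these lists is given with its log2 fold change from edgeR.

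Of 15 subunits of the COMPASS and KMT2 complexes, 2 were higher (13.3%) and 3 lower (20%), beside 21.6% and 19.1% of all tested genes. HCFC1 (-0.77), the core subunit WDR5 (-0.47) and the CpG-binding subunit CXXC1 (-0.32) of the SETD1A and SETD1B complexes were lower, and HCFC2 (0.64) and PSIP1 (0.49), which tethers KMT2A to chromatin, were higher. Of 14 genes for the LSD1-CoREST complex and its recruiters, 4 were higher (28.6%) and 2 lower (14.3%), beside the same shares of all genes. GFI1B, a recruiter of KDM1A, had the largest rise (1.67), from 1.46 and 2.17 CPM to 6.08 and 5.51 CPM, followed by RCOR2 (0.86) and RCOR1 (0.47), while GFI1 (-0.36), the paralogue of GFI1B, and HDAC1 (-0.25) were lower.

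Several of these calls were lost without a JMJD3 library. Without JMJD3 1 HCFC2 (0.61), WDR5 (-0.49), CXXC1 (-0.31), RCOR2 (0.78), RCOR1 (0.51), GFI1 (-0.36) and HDAC1 (-0.25) were not called. Without JMJD3 2 the same held for WDR5 (-0.45), CXXC1 (-0.32), RCOR1 (0.43), GFI1 (-0.35) and HDAC1 (-0.26). With upper quartile scaling CXXC1 (-0.28) and HDAC1 (-0.22) were not called, and with limma on log2(FPKM + 1) HCFC2 (0.42), PSIP1 (0.21), CXXC1 (-0.26), RCOR1 (0.47) and HDAC1 (-0.19) were not.

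Of 12 partners of H3K9 methylation and HP1 genes, 2 were higher (16.7%) and 4 lower (33.3%), beside 21.6% and 19.1% of all tested genes. TRIM28 (-0.65), the partner of SETDB1, MORC2 (-0.60) and CBX3 (-0.37), which encodes HP1γ, were lower, and MPHOSPH8 (0.58) and TASOR (0.48) of the HUSH complex were higher. The call of CBX3 was lost without JMJD3 1 (-0.40) and JMJD3 2 (-0.34), that of MORC2 without JMJD3 2 (-0.53), and that of TASOR without JMJD3 1 (0.52) and JMJD3 2 (0.45), and TASOR was not called by limma on log2(FPKM + 1) (0.11) and had a value just below 0 (-0.0010) on scaled FPKM. In the list of the DOT1L complex and the super elongation complex only NPM1 (-0.40) was called among 9 tested (0% higher, 11.1% lower). NPM1 was not called by limma on log2(FPKM + 1) (-0.25). Of 18 tested enzymes that supply the methyl donor or handle 2-oxoglutarate, 2 were higher (11.1%) and 6 lower (33.3%). All tested genes gave 21.6% and 19.1%, and no list was tested as a set. MAT2A (0.73), which makes S-adenosylmethionine, rose, and IDH2 (-0.62), AHCY (-0.56) and SHMT2 (-0.48) fell.

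Among 21 tested enzymes of the same families outside the 42, 3 were higher (14.3%) and 4 lower (19%), beside 21.6% and 19.1% of all tested genes. KDM7A (1.34), a demethylase of H3K9 and H3K27, rose from 4.37 and 3.09 CPM to 9.07 and 9.86 CPM, next to PRDM12 (0.90) and SMYD4 (0.57). SMYD5 (-0.92), SETMAR (-0.43) and RIOX1 (-0.42) were lower. PRDM12 (0.88), SETMAR (-0.53) and RIOX1 (-0.47) were not called without JMJD3 1, and without JMJD3 2 neither were PRDM12 (0.92), SMYD4 (0.54), SETMAR (-0.34) and RIOX1 (-0.36). With limma on log2(FPKM + 1) SMYD4 (0.46) was not called, and with the DESeq2 test PRDM12 (0.87) was not.

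Some cell type markers moved with the groups as well. The 7 promyelocyte markers summed to 16577 and 17373 CPM in vector libraries and 10474 and 10436 CPM in JMJD3 libraries. MPO was the most abundant and made up most of this sum, which hides larger falls of less abundant markers. Of these 7, edgeR called 4 lower and CD33 higher (log2 fold change 0.29). The log2 fold changes of the 4 were -3.91 for CTSG, -1.81 for PRTN3, -0.57 for MPO and -0.56 for AZU1. ELANE and KIT reached at most 0.351 and 0.216 CPM. The 6 T cell markers summed to 13.4 and 15.2 CPM in vector libraries and 51.1 and 47.2 CPM in JMJD3 libraries. TRAC was the most abundant (log2 fold change 1.99), and edgeR called both TRAC and CD2 (log2 fold change 1.375) higher. CD3D, CD3E and CD3G were at most at 0.262 CPM in any library. The 5 B cell markers summed to 25.9, 30.8, 36.6 and 32.8 CPM in Vector 1, Vector 2, JMJD3 1 and JMJD3 2, led by CD79B, with MS4A1 at 0 and PAX5 at 0 in 3 of 4 libraries. All 8 erythroid markers were at 0, and the 5 fibroblast markers summed to at most 0.183 CPM, led by COL1A1. The part of these shifts in the changes of the members was not tested, and in bulk libraries a change in the mix of cells and a change in RNA per cell cannot be told apart.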

How the data were processed

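RNA-seq libraries of NB4 cells carrying the empty vector (n = 2) or the JMJD3 vector (n = 2) were grouped by their labels. The authors deposited estimated counts and FPKM per gene. Within each library most deposited estimated counts were whole multiples of 1 value, so they were read as fragment counts times a factor of the library, which had not been foreseen when the test was chosen. The submitters' processing notes name CASAVA 1.8, TopHat2 2.0.4, RSEM, edgeR and GRCh38, while the study's methods name other tools and hg19, so how the deposited FPKM were computed is not settled by the sources used here. The authors' own mean FPKM, logFC, p, FDR, significant and regulate columns hold their comparison and were not used.

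After rounding of the estimated counts and filtering with filterByExpr, the quasi-likelihood functions of edgeR 4.0.16 were run in R 4.3.3 on TMM-scaled libraries, with Benjamini-Hochberg adjustment over 15246 genes and a threshold of 0.05. The SE was taken from the fold change and its F statistic. Alternatives used DESeq2 1.42.0, limma 3.58.1 on log2-transformed FPKM with a pseudocount of 1 or 0.1, other scalings and filters, the replicate number as a block, and each library left out in turn. Fold changes on log2(FPKM + 1) understate those of low genes. The fits were tested on simulated data.

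Members and lists were chosen with earlier results of these data known. Values in every library are given for KDM6B, for members called with a change of at least 1.5-fold and for the untested member, and from each other list up to 3 called genes per direction with the largest changes are named. The values of 1 gene that this rule names are not reported here. JMJD1C, KMT2E and KDM1A are also given by library, chosen after their values were seen, as are GFI1B and KDM7A.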

Additional observations from a re-analysis of the deposited data

How the results depend on the processing

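Fold changes and counts of calls were recomputed under the alternatives for tests, and role sums as summed CPM. Ranks of levels, marker sums, the quotient of count and FPKM and promoter counts were not recomputed. Over single genes, 878 recomputed values kept their direction and their side of the threshold, 114 kept the direction and lost the call, 51 gained a call and 45 changed sign. SETD1A, SUV39H1, PRDM8 and PRDM1 were called under every alternative run, and KDM6B stayed between 1.10 and 1.58. With 2 libraries a group, leaving out a library leaves a group of 1, which is then assumed to vary like the other group, and this leaves fewer samples for the test. Scaled FPKM, the crossed block, the removed length trend and the undone library factor were chosen after seeing the data. Counts near the floor, as for PRDM16, limit what can be seen. Where a value moved, the cause was not tested.

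Members called higher in JMJD3 cells numbered 7, and 2 to 17 with a library left out, 4 with limma on scaled log2(FPKM + 1), 3 at an adjusted p under 0.01 and 2 at a change of at least 1.5-fold. Members called lower numbered 9, and 3 to 11 with a library left out, 16 with the length trend removed, 4 at an adjusted p under 0.01 and 4 at a change of at least 1.5-fold. Members higher by at least 2-fold numbered 1 to 2 with a library left out. Members lower by at least 2-fold numbered 1, and 0 with limma on log2(FPKM + 1), 0 on scaled FPKM and 2 with the length trend removed. At a change of at least 1.5-fold, 2296 of all 15246 tested genes were called higher and 1205 lower. Without a filter on low counts, 6.99% of all 27095 genes then tested were called higher and 6.55% lower. The shares were 13.4% and 14.8% with limma on log2(FPKM + 1), 13.3% and 15% on log2(FPKM + 0.1) and 10.3% and 21% on scaled FPKM. Counts for the genes of the other lists have these same backgrounds. The share of all genes at an adjusted p under 0.01 is not given here.

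For genes of the other lists the higher count was 13, and 7 with limma on log2(FPKM + 1), 5 on log2(FPKM + 0.1), 8 without a filter, 6 to 28 with a library left out, 6 on scaled FPKM, 5 at an adjusted p under 0.01 and 6 at 1.5-fold. The lower count was 20, and 13 without a filter, 7 to 27 with a library left out, 11 at an adjusted p under 0.01 and 5 at 1.5-fold.

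As summed CPM in place of FPKM, the log2 ratio of a role group was -0.12 for H3K9 methyltransferases, 0.64 for the PRDM family, -0.0078 for the SMYD family, -0.13 for KDM2 and KDM7 demethylases, 0.20 for KDM3 demethylases and -0.064 for KDM5 demethylases.

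Sign changes were seen in these members, all uncalled in the fit of all libraries. With limma on log2(FPKM + 1), KMT2A had -0.18, KMT2C -0.034, NSD1 0.11, KDM2A -0.054, KDM3B -0.14, JMJD1C -0.51 and PHF2 -0.053, and on log2(FPKM + 0.1) KMT2A had -0.20, KMT2C -0.034, NSD1 0.12, KDM2A -0.056, KDM3B -0.15, JMJD1C -0.54 and PHF2 -0.059. On scaled FPKM, KMT2A had -0.28, KMT2C -0.12, SETD7 -0.087, NSD1 0.011, KDM2A -0.16, KDM3B -0.25, JMJD1C -0.62 and PHF2 -0.15, and TASOR, of the other lists and called higher, had -0.0010. With the length trend removed, KMT2A had -0.14, KMT2C -0.021, PRDM4 -0.0025, KDM2A -0.054, KDM3B -0.10, KDM4A -0.11, KDM5A -0.10, PHF2 -0.13 and PHF8 -0.16. With a library left out, KMT2A ran from -0.24 to 0.36, KMT2C from -0.17 to 0.54, SETD2 from -0.29 to 0.057, ASH1L from -0.75 to 0.014, PRDM4 from -0.012 to 0.27, KDM3B from -0.10 to 0.25, JMJD1C from -0.0030 to 0.61, KDM5A from -0.012 to 0.20, PHF2 from -0.086 to 0.19 and PHF8 from -0.026 to 0.10.

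With the replicate number as a block (replicate block), 9 members were higher and 6 lower, of which 7 and 6 were among those called without it. Of all tested genes, 21.4% were then called higher and 15.8% lower. SUV39H2, KDM1A and SMYD2 were not called, KMT2E and PRDM10 were, KDM6B had 1.47 and no other member's call changed. The genes of the other lists then gave 12 higher and 15 lower. Nothing in the labels pairs the libraries, and the deviations of same-numbered libraries from their group means had a correlation of -0.252 across genes. With the numbers paired crosswise as a block, 13 members were called higher and 13 lower, beside 28.4% and 24.7% of all tested genes. Of the other lists, 22 genes were then called higher and 23 lower.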
